A study of Mus musculus with 8 samples.

Results

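The 53 genes of glycolysis, pyruvate handling, the tricarboxylic acid (TCA) cycle and the pentose phosphate pathway were followed in full-grown mouse oocytes, the ovarian germ cells that have finished growing and hold the transcripts of the early embryo. They were taken by gene symbol from a raw count table of 35976 rows, and every symbol was found. Of the 53, 49 were among the 16847 genes that passed the filter on low counts, and Slc2a3, Eno2, Eno3 and Pdk4 did not pass it. Polyadenylated RNA was amplified from pools of about 20 oocytes without their zona pellucida, and there were 8 libraries, 2 in each of 4 groups. In the H2A.Z line, 1 group is labelled as a double knockout (DKO) of the genes for H2A.Z.1 and H2A.Z.2, histone variants found at promoters, and its control group (CTR) is labelled wild type. The Mll2 line has a knockout (KO) of Mll2, which encodes a methyltransferase of lysine 4 of histone H3, and a wild-type (WT) group. Strain, age and the driver of each deletion are not given in the labels, and nothing in them ties a replicate to its own animal. Adjusted p-values then measure the spread between these libraries, which may be technical.

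Glycolysis splits glucose into pyruvate in the cytosol, lactate dehydrogenase interconverts pyruvate and lactate, and the pyruvate dehydrogenase (PDH) complex feeds acetyl-CoA into the mitochondrial TCA cycle. PDH kinases switch that complex off by phosphorylation. The mouse oocyte is known for using little glucose itself, for drawing on pyruvate delivered by the surrounding cumulus cells, and for a lactate dehydrogenase made almost wholly of the B subunit. The pentose phosphate pathway branches from the top of glycolysis and makes NADPH and ribose.

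The libraries held between 20309233 and 30087863 counts, and replicates correlated across genes with r between 0.984 and 0.989 on the log2 scale. Levels are normalised CPM, counts scaled by the library total and its TMM factor, and fold changes are log2 with their standard error (SE) from edgeR's quasi-likelihood test, adjusted over all 16847 genes. Kmt2b, the gene of MLL2, had 8.73 and 9.27 CPM in the Mll2 KO libraries, against 41.9 and 42.4 CPM in WT. H2afz and H2afv, the H2A.Z genes, went against the label: H2afz had 322 and 317 CPM in the libraries labelled DKO, against 23.9 and 29.9 CPM in CTR, and H2afv had 285 and 294 CPM, against 108 and 107 CPM. The samples of that group are therefore called the libraries labelled DKO. Whether the labels of the H2A.Z groups were exchanged, or transcripts of the altered genes were still counted, was not tested. An exchange would turn round every DKO minus CTR direction given here, and would change each contrast that uses these groups. All 10 oocyte markers were present in every library, with a summed level of 25420 and 28860 CPM in the libraries labelled DKO, 26200 and 25020 CPM in CTR, 18020 and 15920 CPM in Mll2 KO and 17990 and 22760 CPM in WT. The 15 granulosa and cumulus markers summed to 129.3 and 131.2 CPM under the DKO label, against 94.88 and 95.74 CPM in CTR, and to 103.3 and 104.5 CPM in Mll2 KO, against 92.77 and 94.76 CPM in WT. Cyp19a1 and Nr5a2 made up most of these sums in every group. Fshr averaged 18.8 CPM under the DKO label, 0.945 in CTR, 7.47 in Mll2 KO and 0.792 in WT. Of the 10 granulosa and cumulus markers tested, 4 were higher and 1 lower under the DKO label, and 3 were higher and 2 lower in Mll2 KO. Of all tested genes, 30.9% and 30.6% were called in these comparisons. Fshr, Nr5a2 and Ptgs2 were called higher in both, and Has2 under the DKO label alone. Fst was called lower under the DKO label, and Cyp19a1 and Kitl in Mll2 KO. Amh had at most 1 count in any library. The 9 theca and stroma markers summed to 26.95 and 23.81 CPM under the DKO label, against 14.26 and 15.97 CPM in CTR, and to 9.198 and 9.672 CPM in Mll2 KO, against 8.92 and 10.15 CPM in WT. Most of this was the single gene Cyp11a1, with means of 20 CPM under the DKO label, 10.6 in CTR, 5.67 in Mll2 KO and 6.55 in WT. The 9 blood, immune and endothelial markers summed to 32.54 and 29.08 CPM under the DKO label, against 22.17 and 23.62 CPM in CTR, and to 36.29 and 44.5 CPM in Mll2 KO, against 36.57 and 35.6 CPM in WT, with both globin genes and Cdh5 at 0 in all libraries. Pecam1 alone made up most of that sum, with means of 28.4 CPM under the DKO label, 19.2 in CTR, 37.1 in Mll2 KO and 32.7 in WT. The part of other cells in the results for metabolic genes was not tested. In such pooled samples fewer cells of a type and less RNA per cell cannot be told apart.

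Ldhb, which encodes the B subunit of lactate dehydrogenase, stood far above every other member. It had 7380 and 7660 CPM in the libraries labelled DKO, 7070 and 6600 CPM in CTR, 3470 and 2350 CPM in Mll2 KO and 3130 and 4500 CPM in WT. Both H2A.Z-line groups lay above both Mll2-line groups, the libraries labelled DKO lay just above CTR, and Mll2 KO and WT overlapped. Per kilobase of transcript, Ldhb held 79.9% of the summed CPM of the 53 genes in the libraries labelled DKO, 77.1% in CTR, 61% in Mll2 KO and 65.7% in WT. Ldha, for the A subunit, was rare, at 1.1 CPM per kb under the DKO label, 0.267 in CTR, 0.528 in Mll2 KO and 0.209 in WT, where Ldhb had 5770, 5240, 2230 and 2920 CPM per kb.

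Below Ldhb, the order of the members per kilobase differed between the groups. In the libraries labelled DKO, the next genes per kilobase were Dld and Mdh2 with 133 CPM per kb each, Mdh1 with 128 and Mpc2 with 127. In Mll2 KO the order after Ldhb was Mdh2 with 142 CPM per kb, G6pdx with 132 and Mpc2 with 92.8, and in Mll2 WT it was G6pdx with 182, Mdh2 with 133 and Sucla2 with 108. Dld is the dihydrolipoamide dehydrogenase shared by the PDH and oxoglutarate dehydrogenase complexes, Mdh1 and Mdh2 are the cytosolic and mitochondrial malate dehydrogenases, Mpc2 is a subunit of the mitochondrial pyruvate carrier, and G6pdx encodes the enzyme that opens the pentose phosphate pathway. With 2 libraries a group, the order of neighbours within a few CPM per kb is not fixed. Both hexokinase genes, whose products start glycolysis, were low in all groups, Hk2 at 0.599 CPM per kb under the DKO label, 0.295 in CTR, 0.317 in Mll2 KO and 0.407 in WT, and Hk1 at 0.134 or less. Of the 53 genes, 38 reached 10 CPM in some group, 13 reached 100 CPM and 8 stayed under 1 CPM in every group.

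**Figure D1:**
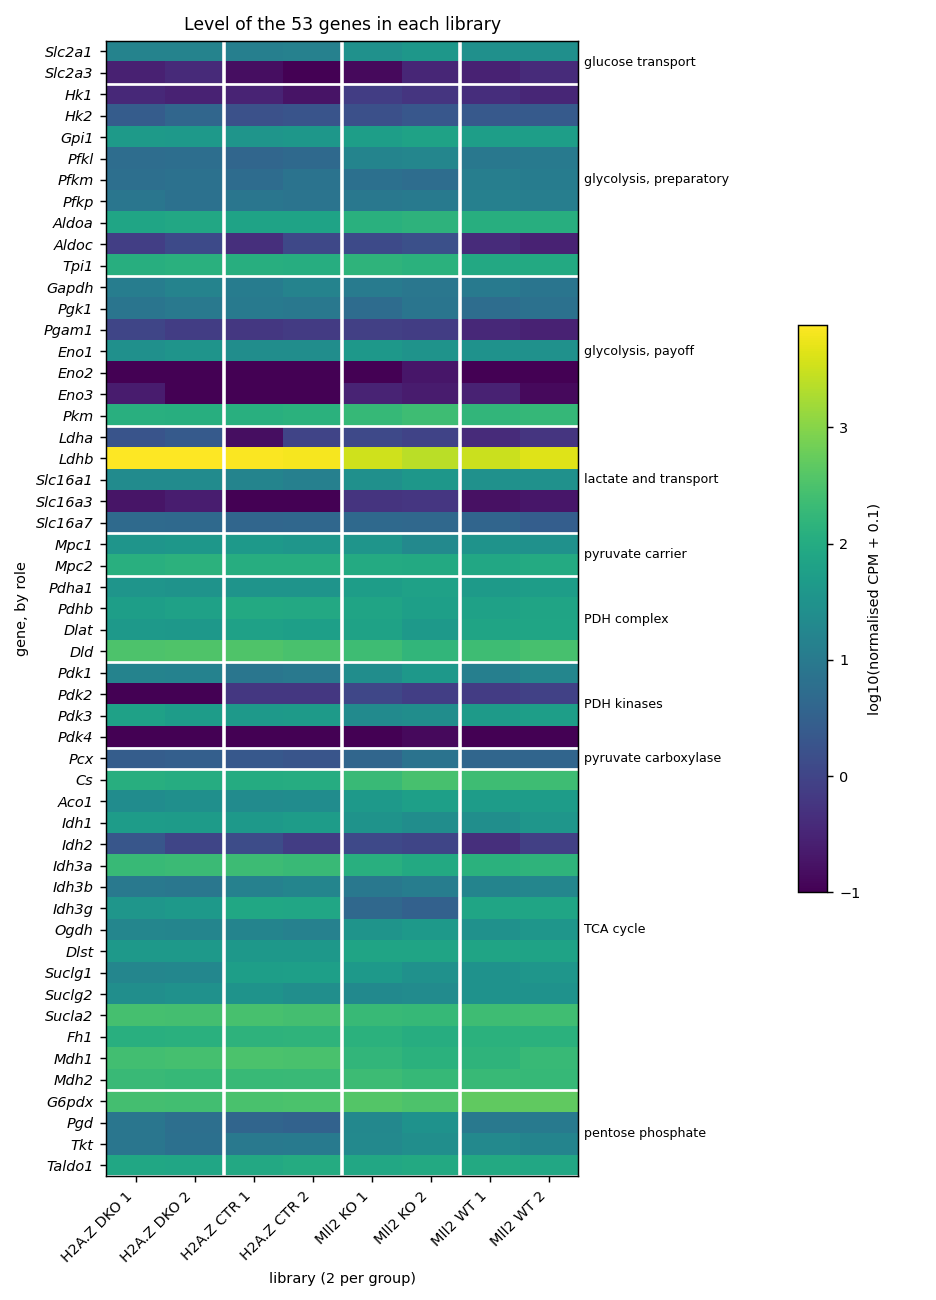
Heat map of the 53 genes (rows, grouped by role) in the 8 libraries (columns: H2A.Z DKO as labelled, H2A.Z CTR, Mll2 KO, Mll2 WT, 2 each); colour is log10 of normalised CPM plus 0.1, not divided by length. Ldhb is the brightest row at 2350 to 7660 CPM, Idh3g is dark only in Mll2 KO at 4.28 and 3.19 CPM, and Pdk2 is at 0 in both libraries labelled DKO.

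The upstream sequences of 4 of the 6 members whose transcripts fell under the DKO label are shown. They are Idh3g and Idh3b, subunits of the NAD-dependent isocitrate dehydrogenase (IDH3), Suclg1, the alpha subunit of succinyl-CoA ligase, and Pdk2, a PDH kinase. Idh3g and Idh3b fell in Mll2 KO as well. Pdhb and Dlat also fell under the DKO label, and their sequences are not shown. Each sequence shown is the 250 bases before the RefSeq transcription start on GRCm38.p6 (mm10). It is written 5′ to 3′ on the gene's own strand, with CpG dinucleotides in capitals. The windows lie at chrX:73786898-73787147 (minus strand), chr2:130284452-130284701 (minus), chr6:73248255-73248504 (plus) and chr11:95041372-95041621 (minus), just before the annotated genes Idh3g (chrX:73778963-73786897), Idh3b (chr2:130279309-130284451), Suclg1 (chr6:73248505-73276907) and Pdk2 (chr11:95026258-95041371).
Idh3g: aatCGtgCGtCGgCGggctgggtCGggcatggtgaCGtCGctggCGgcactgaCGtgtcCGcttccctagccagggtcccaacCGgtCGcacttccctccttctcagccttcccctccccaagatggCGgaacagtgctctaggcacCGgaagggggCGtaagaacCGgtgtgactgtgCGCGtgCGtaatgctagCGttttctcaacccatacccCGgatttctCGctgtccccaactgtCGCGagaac
Idh3b: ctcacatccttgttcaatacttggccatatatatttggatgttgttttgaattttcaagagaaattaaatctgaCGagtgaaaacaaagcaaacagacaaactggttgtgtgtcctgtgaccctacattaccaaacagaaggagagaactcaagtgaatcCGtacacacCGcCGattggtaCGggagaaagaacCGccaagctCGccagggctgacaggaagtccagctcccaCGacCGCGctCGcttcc
Suclg1: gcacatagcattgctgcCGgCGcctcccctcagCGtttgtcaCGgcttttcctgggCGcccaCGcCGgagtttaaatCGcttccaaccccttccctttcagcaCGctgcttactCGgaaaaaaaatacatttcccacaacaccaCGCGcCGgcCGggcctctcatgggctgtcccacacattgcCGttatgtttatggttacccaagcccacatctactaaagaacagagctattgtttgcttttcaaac
Pdk2: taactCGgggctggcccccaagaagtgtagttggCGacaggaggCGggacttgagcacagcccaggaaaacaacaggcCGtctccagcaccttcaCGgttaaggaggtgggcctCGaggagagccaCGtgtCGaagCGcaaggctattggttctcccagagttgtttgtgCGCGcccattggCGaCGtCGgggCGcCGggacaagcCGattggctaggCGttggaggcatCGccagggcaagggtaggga
The capitals count 24 CpG for Idh3g, 11 for Idh3b, 15 for Suclg1 and 19 for Pdk2, against a median of 16 over the 50 members with a RefSeq promoter (all but Idh3a, Slc2a3 and Slc16a7) and of 6 over 27025 promoters. The medians were 25 CpG for the 5 members higher under the DKO label, 17 for the 6 lower and 16 for those not called. They were 18 for the 7 members higher in Mll2 KO, 15 for those lower and 17 for those not called, with ranges that overlapped in both comparisons. Exact letters of 7 motifs were searched on both strands, counted from the start at -1. The Idh3g window held the ETS core CCGGAAG at -104, present in 7.38% of all promoters, and the YY1 core AAGATGGC at -130, present in 1.59%. The Pdk2 window held CCAAT on the opposite strand at -105, -73 and -42 and the E-box CACGTG at -126, present in 33.9% and 6.19% of promoters. Idh3b held CCAAT at -76, also on the opposite strand, and Suclg1 none of the letters searched, which also included GGGCGG (34.4% of promoters), TATAAA (12.6%) and the palindromic NRF1 motif (0.821%).

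The first comparison asked which members differed between the libraries labelled DKO and their controls. Of 49 tested, 5 were higher and 6 lower, 22.4% of the members, where 30.9% of all tested genes were called (19.4% higher and 11.5% lower). The members' median log2 difference was 0.07 and that of all genes 0.12, and the members' median was the same when Pdk2 and Slc16a3, which had 0 counts in a group, were given 3 counts there. The balance depends on scaling: with library totals alone the median of all genes moved from 0.124 to 0.002, and 3 members were higher and 9 lower, while the higher share of all calls moved from 62.9% to 45.5%. Leaving out CTR 1 gave 2 higher members, leaving out CTR 2, DKO 1, DKO 2 or Mll2 WT 2 gave 1 each, and leaving out Mll2 KO 1 or KO 2 gave 13 and 12 lower. No called member changed sign in any alternative.

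In glycolysis and lactate handling, the members called under the DKO label were higher. Ldha had 1.73 and 2.28 CPM in the libraries labelled DKO, against 0.0517 and 0.916 CPM in CTR (log2 1.95 ± 0.63, adjusted p = 0.0279). Hk2 had 2.57 and 4.03 CPM under that label, against 1.5 and 1.75 CPM in CTR (log2 1.01 ± 0.33, adjusted p = 0.0275). Slc16a1, the monocarboxylate transporter MCT1, had 22.2 and 22.8 CPM, against 15.7 and 13.6 CPM in CTR (log2 0.62 ± 0.17, adjusted p = 0.0105). None of the 3 overlapped between the groups. Here and below, such separation adds no support of its own for genes already called, and its share over all genes is not given. Each call, however, depended on single libraries. Hk2 lost it without CTR 1, CTR 2, DKO 2 or Mll2 WT 2 (adjusted p = 0.156, 0.0992, 0.267 and 0.08), with library totals alone (0.0584) and by DESeq2 (0.0677). Ldha lost it without CTR 1, DKO 1, DKO 2 or Mll2 WT 2 (adjusted p = 0.17, 0.0725, 0.141 and 0.053), and Slc16a1 without CTR 2, DKO 1, DKO 2 or Mll2 WT 2 (0.121, 0.0537, 0.0659 and 0.0638). The glucose transporter Slc2a1 had 15.3 and 15.1 CPM, against 12.9 and 14.2 CPM in CTR, and did not pass (log2 0.16 ± 0.16, adjusted p = 0.478). The other 8 tested genes from hexokinase Hk1 to triosephosphate isomerase Tpi1 had log2 differences between -0.09 and 0.72, and the 5 tested genes of the payoff phase, from Gapdh to the pyruvate kinase gene Pkm, between -0.18 and 0.51, none of them past the threshold. Pkm was called lower with the line fitted alone. Ldhb (log2 0.14 ± 0.18, adjusted p = 0.597), Slc16a7 (0.20 ± 0.24, adjusted p = 0.577) and the pyruvate carrier genes Mpc1 (-0.13 ± 0.20, adjusted p = 0.681) and Mpc2 (0.22 ± 0.11, adjusted p = 0.136) did not pass either.

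Of the 4 members that encode PDH complex subunits, 2 fell under the DKO label, where 11.5% of all tested genes were lower. Pdhx, a further gene of the complex outside the members, did not pass there (log2 -0.09 ± 0.11, adjusted p = 0.591). Pdhb, the beta subunit of its pyruvate dehydrogenase component, had 55.2 and 61.5 CPM in the libraries labelled DKO, against 91.7 and 87 CPM in CTR (log2 -0.61 ± 0.13, adjusted p = 0.00198). Dlat, the acetyltransferase core, had 41.5 and 39.6 CPM, against 63.3 and 57.4 CPM in CTR (log2 -0.57 ± 0.15, adjusted p = 0.00959). Neither gene overlapped between the groups. The Pdhb call held in every alternative, whereas that of Dlat was lost without CTR 1, DKO 1 or DKO 2 (adjusted p = 0.092, 0.0605 and 0.0819). Pdha1, the alpha subunit, had 34.8 and 32.4 CPM, against 34.2 and 33.4 CPM in CTR (log2 -0.01 ± 0.13, adjusted p = 0.968), and Dld had 334 and 344 CPM, against 343 and 309 CPM in CTR (log2 0.06 ± 0.14, adjusted p = 0.786).

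The PDH kinase genes went different ways under the DKO label. Pdk1 had 15.4 and 14.5 CPM in the libraries labelled DKO, against 8.32 and 9.52 CPM in CTR (log2 0.74 ± 0.22, adjusted p = 0.0195), and lost its call without CTR 1, CTR 2, DKO 1, DKO 2 or Mll2 WT 2 (adjusted p = 0.135, 0.0675, 0.109, 0.0666 and 0.0643) and with library totals alone (0.0584). Pdk2 had 0 counts in both libraries labelled DKO, against 0.517 and 0.518 CPM in CTR, or 0 against 23 counts. Taking 3 counts as the floor for the group, this is at least 7.52-fold lower (edgeR adjusted p = 0.00163), and the call held in every alternative that tested the gene. Pdk3, at 61.7 and 49.6 CPM against 43.6 and 46.5 CPM in CTR, did not pass (log2 0.31 ± 0.14, adjusted p = 0.116). Pdk4 had no counts in either group.

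In the TCA cycle 3 of the 15 members fell under the DKO label and none rose. Suclg1 fell furthest, with 17.4 and 18.3 CPM in the libraries labelled DKO, against 54.1 and 56.1 CPM in CTR (log2 -1.63 ± 0.16, adjusted p = 4.27e-06). Idh3g had 37.4 and 43.6 CPM, against 82.9 and 78.3 CPM in CTR (log2 -0.99 ± 0.13, adjusted p = 6.35e-05). Idh3b had 9.35 and 8.63 CPM, against 14.2 and 16.4 CPM in CTR (log2 -0.77 ± 0.18, adjusted p = 0.00517). In all 3 genes both libraries labelled DKO lay below both controls. The calls of Suclg1 and Idh3g held in every alternative, and that of Idh3b was lost without CTR 2 or DKO 2 (adjusted p = 0.0721 and 0.0545). Their partner subunits did not pass: Idh3a, the catalytic alpha subunit of IDH3, had 195 and 218 CPM, against 220 and 207 CPM in CTR (log2 -0.05 ± 0.12, adjusted p = 0.807), and the beta subunits of succinyl-CoA ligase, Suclg2 and Sucla2, had log2 differences of -0.05 ± 0.15 and -0.04 ± 0.10 (adjusted p = 0.834 and 0.772). The remaining 9 genes, among them the citrate synthase gene Cs (0.11 ± 0.13), the fumarase gene Fh1 (-0.26 ± 0.11) and the low-level Idh2 (0.56 ± 0.49), did not pass. With the line fitted alone, Fh1, Mdh1 and Mdh2 were called lower. Fh1 was also called lower with RLE scaling, library totals alone and DESeq2.

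Pgd, the phosphogluconate dehydrogenase gene of the pentose phosphate pathway, had 8.16 and 5.98 CPM in the libraries labelled DKO, against 3.77 and 3.35 CPM in CTR (log2 1.00 ± 0.26, adjusted p = 0.0088). It was the only one of the 4 pentose phosphate members called there, and lost the call without CTR 2 or DKO 1 (adjusted p = 0.0855 and 0.114). Genes of that pathway outside the members were also called, and are counted with the further genes below. G6pdx (log2 -0.24 ± 0.10, adjusted p = 0.0737), transketolase Tkt (-0.45 ± 0.20, adjusted p = 0.105) and transaldolase Taldo1 (-0.25 ± 0.11, adjusted p = 0.0965) did not pass. Each of them was, however, called lower with the line fitted alone. G6pdx was also called lower with RLE scaling, library totals alone and DESeq2, and Taldo1 with library totals alone. Pcx, the pyruvate carboxylase that supplies oxaloacetate, also did not (log2 0.49 ± 0.32, adjusted p = 0.259).

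**Figure D2:**
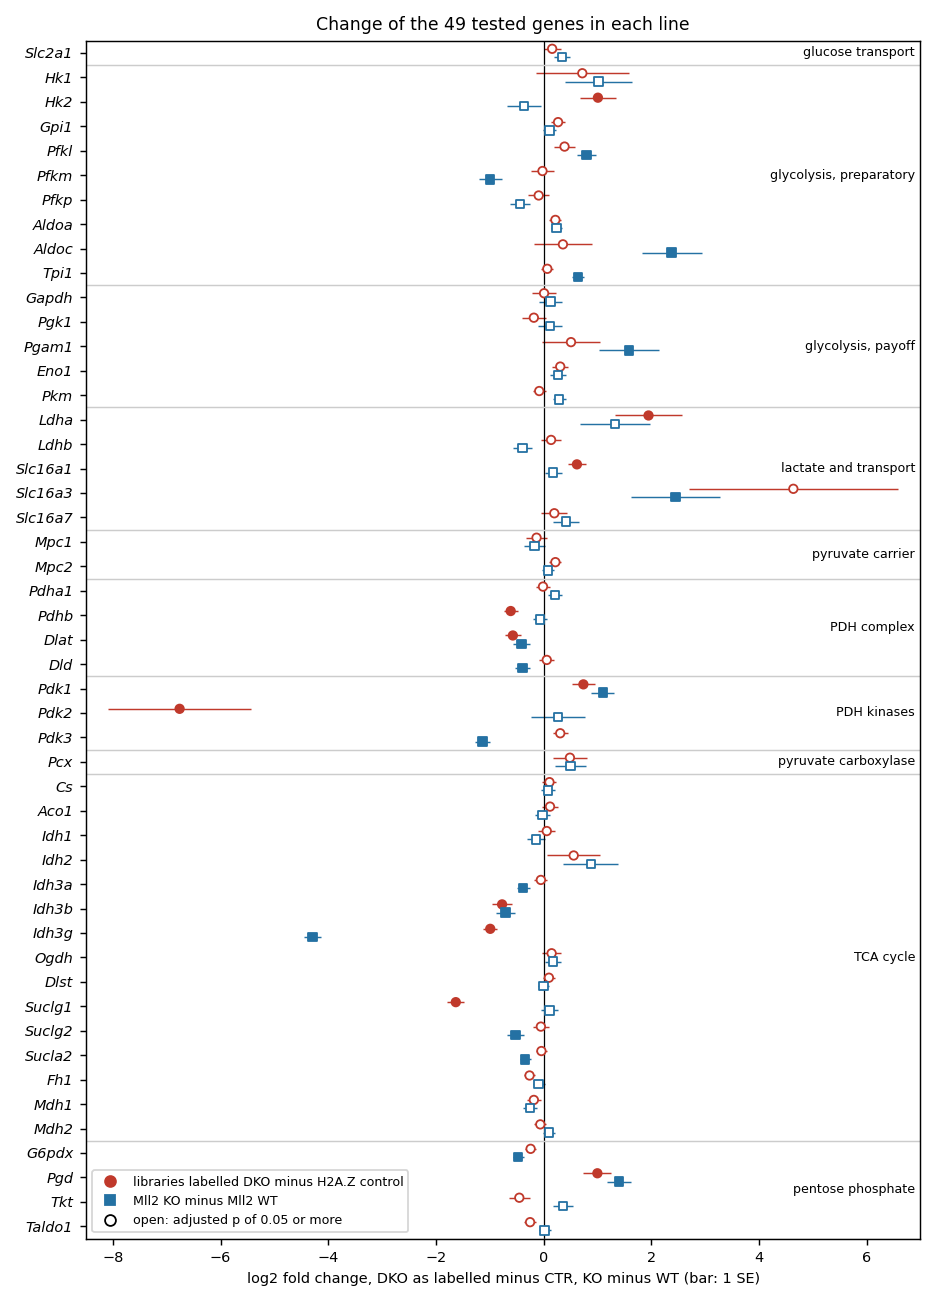
Log2 fold change of the 49 tested genes (rows, by role) for the libraries labelled DKO minus their controls (circles) and Mll2 KO minus WT (squares); filled symbols have an adjusted p under 0.05 and bars are 1 SE. Idh3g lies furthest left in Mll2 KO at -4.29 and the Suclg1 circle lies at -1.63; the fitted values of Pdk2, the circle furthest left, and Slc16a3 under the DKO label rest on a group with 0 counts and are no measure of size.

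The second comparison set Mll2 KO against Mll2 WT. Of 49 members, 7 were higher and 10 lower, 34.7%, where 30.6% of all tested genes were called (14.4% higher and 16.2% lower). The members' median was 0.11 and that of all genes 0.02. With library totals alone the median of all genes moved from 0.017 to 0.139, 10 members were higher and 5 lower, and the higher share of all calls moved from 47.1% to 62.9%. Leaving out WT 1 or WT 2 gave 4 higher members each, WT 2 also gave 4 lower, and leaving out KO 1 gave 13 higher. The spread was widest in the Mll2 KO libraries, with a chi-square per degree of freedom of 36.8 across genes, against 12.2 for the WT pair.

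Idh3g fell furthest of the 10 members lower in Mll2 KO. Idh3g had 4.28 and 3.19 CPM in KO, against 73.6 and 73 CPM in WT (log2 -4.29 ± 0.16, adjusted p = 1.09e-10). Both KO libraries lay far below either control, and the call held in every alternative. Idh3b had 8.89 and 11.4 CPM in KO, against 15.8 and 17.4 CPM in WT (log2 -0.71 ± 0.18, adjusted p = 0.00706), and lost its call without WT 2 (adjusted p = 0.0768). Idh3a had 120 and 94 CPM in KO, against 130 and 149 CPM in WT (log2 -0.38 ± 0.12, adjusted p = 0.0287), and lost it without WT 2 or KO 2 (0.184 and 0.0626), with library totals alone (0.097) and with the line fitted alone (0.101). All 3 IDH3 genes were thus lower in both KO libraries than in either WT library, by very different amounts.

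The change in make-up of IDH3 transcripts was visible in every library. Idh3g held 5.48% and 4.94% of the CPM per kb of the 3 genes in Mll2 KO, against 46.5% and 43.1% in WT. Under the DKO label it held 24.4% and 25.4%, against 38.3% and 38% in CTR. Idh3a made up 85.1% and 80.6% in KO, against 45.4% and 48.5% in WT, and 70.5% and 70.4% under the DKO label, against 56.3% and 55.5% in CTR. IDH3 is an enzyme of alpha, beta and gamma subunits, and the assembled protein was not measured.

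The start of Idh3g lies 126 bases from that of Ssr4, which is transcribed the other way and encodes a subunit of the translocon-associated protein complex. Ssr4 had 4.18 and 2.96 CPM in Mll2 KO, against 40.2 and 37.4 CPM in WT (log2 -3.44 ± 0.17, adjusted p = 1.19e-09). Under the DKO label Ssr4 had 39.1 and 39 CPM, against 39.1 and 40.5 CPM in CTR (log2 -0.03 ± 0.14, adjusted p = 0.91), where Idh3g was lower. The gene pair was thus low together in Mll2 KO and not under the DKO label. Of the other 4 members with a divergent neighbour starting within 500 bases, none was called in the same direction as its neighbour: Pikfyve, whose start is 206 bases from that of Idh1, rose in Mll2 KO (53.1 and 59.4 CPM, against 25.3 and 26.1 CPM in WT, adjusted p = 7.88e-06), where Idh1 had 31.9 and 24.7 CPM, against 26.3 and 36.1 CPM in WT (log2 -0.14 ± 0.16, adjusted p = 0.543). Ikbkg, which overlaps G6pdx, rose in KO (log2 1.14 ± 0.29, adjusted p = 0.00782) where G6pdx fell. The neighbours of Mdh1 and Mdh2, Wdpcp and Styxl1, did not pass in either comparison.

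The other TCA changes in Mll2 KO were small. Suclg2, the beta subunit of the GTP-forming succinyl-CoA ligase, had 20.7 and 22.8 CPM in KO, against 31.3 and 31 CPM in WT (log2 -0.52 ± 0.15, adjusted p = 0.0151). Sucla2, that of the ADP-forming ligase, had 194 and 186 CPM in KO, against 236 and 244 CPM in WT (log2 -0.34 ± 0.10, adjusted p = 0.0172). Suclg1, the alpha subunit common to both, had 42.1 and 30.1 CPM in KO, against 30.4 and 36.5 CPM in WT, and did not pass (log2 0.11 ± 0.16, adjusted p = 0.621). The beta-subunit genes were called lower in KO and the alpha-subunit gene was not called. Whether their changes differed from each other was not tested. The log2 change under the DKO label minus that in Mll2 KO was 0.47 for Suclg2 (adjusted p = 0.132) and 0.30 for Sucla2 (adjusted p = 0.155). The changes of these genes were thus not shown to differ between the lines. The Suclg2 call was lost without WT 1 or WT 2 (adjusted p = 0.0758 and 0.075) and with library totals alone (0.052), and the Sucla2 call in the same 3 settings (0.0689, 0.0828 and 0.0849) and with the line fitted alone (0.0747). In all, 5 of the 15 TCA and isocitrate members fell in Mll2 KO and none rose. Cs had 208 and 289 CPM in KO, against 236 and 233 CPM in WT (log2 0.08 ± 0.13, adjusted p = 0.648), and Dlst, the core of the oxoglutarate dehydrogenase complex, had 70.1 and 69.6 CPM, against 72 and 67.6 CPM (log2 0.00 ± 0.11, adjusted p = 0.995).

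**Figure D3:**
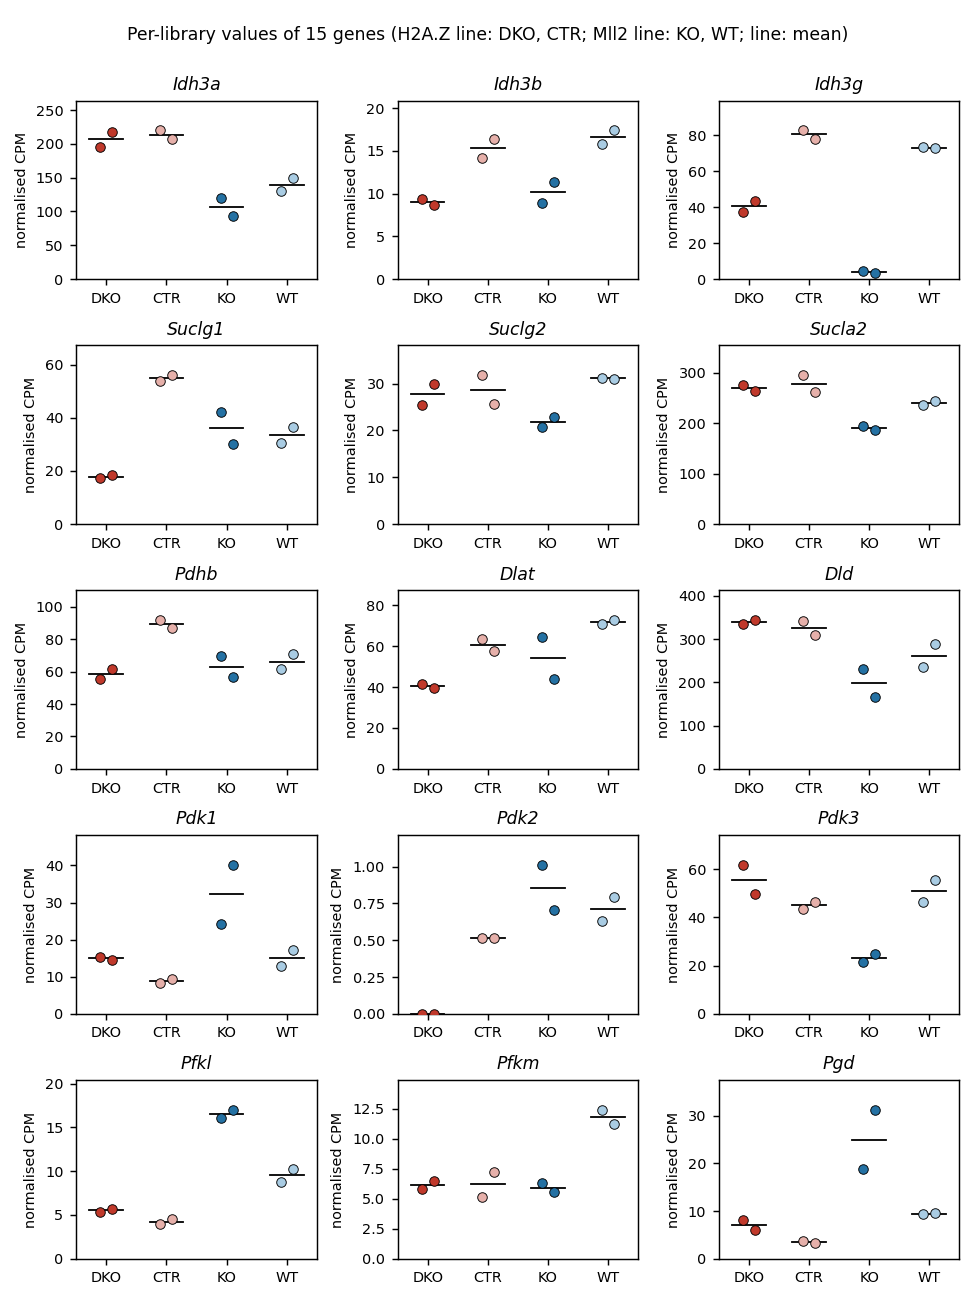
Normalised CPM (vertical axes from 0, each gene on its own scale) in each library for 15 genes, in the order DKO as labelled, CTR, KO, WT; points are libraries and lines are means of 2. Idh3g is near 0 in Mll2 KO (4.28 and 3.19 CPM), Suclg1 is low only under the DKO label (17.4 and 18.3 CPM), and Pdk1 is higher under the DKO label and in Mll2 KO, with a wide KO pair (24.3 and 40.1 CPM).

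Pdk1 and Pdk3 moved in opposite directions in Mll2 KO. Pdk3, an X-linked kinase gene, had 21.7 and 25 CPM in KO, against 46.4 and 55.6 CPM in WT (log2 -1.13 ± 0.14, adjusted p = 3.2e-05). Pdk1 had 24.3 and 40.1 CPM in KO, against 13 and 17.1 CPM in WT (log2 1.10 ± 0.21, adjusted p = 0.00111). Neither overlapped between groups and both calls held in every alternative. Per kilobase, Pdk3 gave 66.7% and 59.4% of the transcripts of the 4 PDH kinases in KO, against 88.7% and 87.8% in WT, and Pdk1 30.4% and 38.9%, against 10.2% and 11%. Pdk2 had 1.01 and 0.705 CPM in KO, against 0.628 and 0.791 CPM in WT (log2 0.27 ± 0.50, adjusted p = 0.711), and Pdk4 had 1 count in KO.

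Within the PDH complex, Dld had 232 and 167 CPM in Mll2 KO, against 236 and 288 CPM in WT (log2 -0.39 ± 0.14, adjusted p = 0.0416), and Dlat had 64.3 and 43.7 CPM, against 70.6 and 72.7 CPM in WT (log2 -0.41 ± 0.15, adjusted p = 0.0475). Both calls were marginal. Pdhx, outside the members, fell more clearly (log2 -0.86 ± 0.11, adjusted p = 4.14e-05) and is given with the further genes below. That of Dlat was lost in 13 of 16 alternatives, including the omission of every library but KO 1 (adjusted p = 0.0667 to 0.178), and that of Dld in 9 of 16, including the omission of either library of CTR, either labelled DKO, WT 2 or KO 2 (0.0576 to 0.262). Pdhb had 69.8 and 56.4 CPM in KO, against 61.5 and 70.6 CPM in WT (log2 -0.07 ± 0.13, adjusted p = 0.724), and Pdha1 had 51.3 and 61.3 CPM, against 45.8 and 51.8 CPM (log2 0.21 ± 0.13, adjusted p = 0.24).

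In glycolysis 4 genes rose and 1 fell in Mll2 KO. Tpi1, triosephosphate isomerase, had 151 and 130 CPM in KO, against 88.3 and 91 CPM in WT (log2 0.64 ± 0.11, adjusted p = 0.000344). Pfkl, the liver-type phosphofructokinase, had 16.1 and 17 CPM in KO, against 8.76 and 10.3 CPM in WT (log2 0.80 ± 0.18, adjusted p = 0.00363). Pfkm, the muscle type, had 6.3 and 5.57 CPM in KO, against 12.4 and 11.2 CPM in WT (log2 -0.99 ± 0.21, adjusted p = 0.00202). None of these overlapped between groups, and phosphofructokinase transcripts changed in make-up: Pfkl gave 50.1% and 51% of the family's CPM per kb in KO, against 23.8% and 28.8% in WT, and Pfkm 25.4% and 21.7%, against 43.6% and 40.5%. Pfkp, the platelet type, had 8.76 and 10.1 CPM in KO, against 13.4 and 12.2 CPM in WT, which did not overlap but did not pass (log2 -0.44 ± 0.19, adjusted p = 0.0876). The calls of Tpi1 and Pfkm held in every alternative, and that of Pfkl was lost without WT 1 (adjusted p = 0.0614). Tpi1, Pfkm and Pfkp overlap the genes Spsb2, Senp1 and Pitrm1, and the library kit does not mark strand, so reads of overlapping genes cannot be told apart.

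The other rises in glycolysis and lactate export in Mll2 KO were at low levels. Aldoc, the brain-type aldolase, had 1.15 and 1.48 CPM in KO, against 0.297 and 0.198 CPM in WT (log2 2.38 ± 0.56, adjusted p = 0.00496), a call lost without WT 2 (adjusted p = 0.0604), while Aldoa held 99.5% and 99.4% of aldolase CPM per kb in KO, against 99.9% and 99.9% in WT. Pgam1, phosphoglycerate mutase, had 0.741 and 0.672 CPM in KO, against 0.264 and 0.198 CPM in WT (log2 1.59 ± 0.56, adjusted p = 0.0401), and lost its call whichever library was left out (adjusted p = 0.052 to 0.211) and by DESeq2 (0.0999). Slc16a3, the lactate exporter MCT4, had 0.438 and 0.504 CPM in KO, against 0.0661 and 0.0989 CPM in WT (log2 2.45 ± 0.82, adjusted p = 0.0338). Slc16a3 had 28 counts in KO, 5 in WT, 5 under the DKO label and 0 in CTR, so it passed the filter through the KO group where it is high, and its call too was lost whichever library was left out (adjusted p = 0.0587 to 0.219) and by DESeq2 (0.169). Slc2a1 had 29.9 and 39 CPM in KO, against 27.9 and 26.7 CPM in WT (log2 0.34 ± 0.15, adjusted p = 0.104), and Pkm had 189 and 235 CPM, against 165 and 181 CPM (log2 0.29 ± 0.12, adjusted p = 0.0642). Ldhb did not pass (log2 -0.39 ± 0.18, adjusted p = 0.115), nor did Ldha (1.33 ± 0.65, adjusted p = 0.133).

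The oxidative genes of the pentose phosphate pathway went different ways in Mll2 KO. Pgd had 18.8 and 31.2 CPM in KO, against 9.38 and 9.56 CPM in WT (log2 1.40 ± 0.22, adjusted p = 0.000262). G6pdx had 371 and 328 CPM in KO, against 486 and 484 CPM in WT (log2 -0.47 ± 0.10, adjusted p = 0.00213). Both groups were apart for each gene, and both calls held in every alternative. Tkt had 20.2 and 25.9 CPM, against 20 and 16 CPM in WT (log2 0.36 ± 0.18, adjusted p = 0.151), and Taldo1 had 83 and 93.2 CPM, against 90.6 and 83.4 CPM (log2 0.02 ± 0.11, adjusted p = 0.916).

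**Figure D4:**
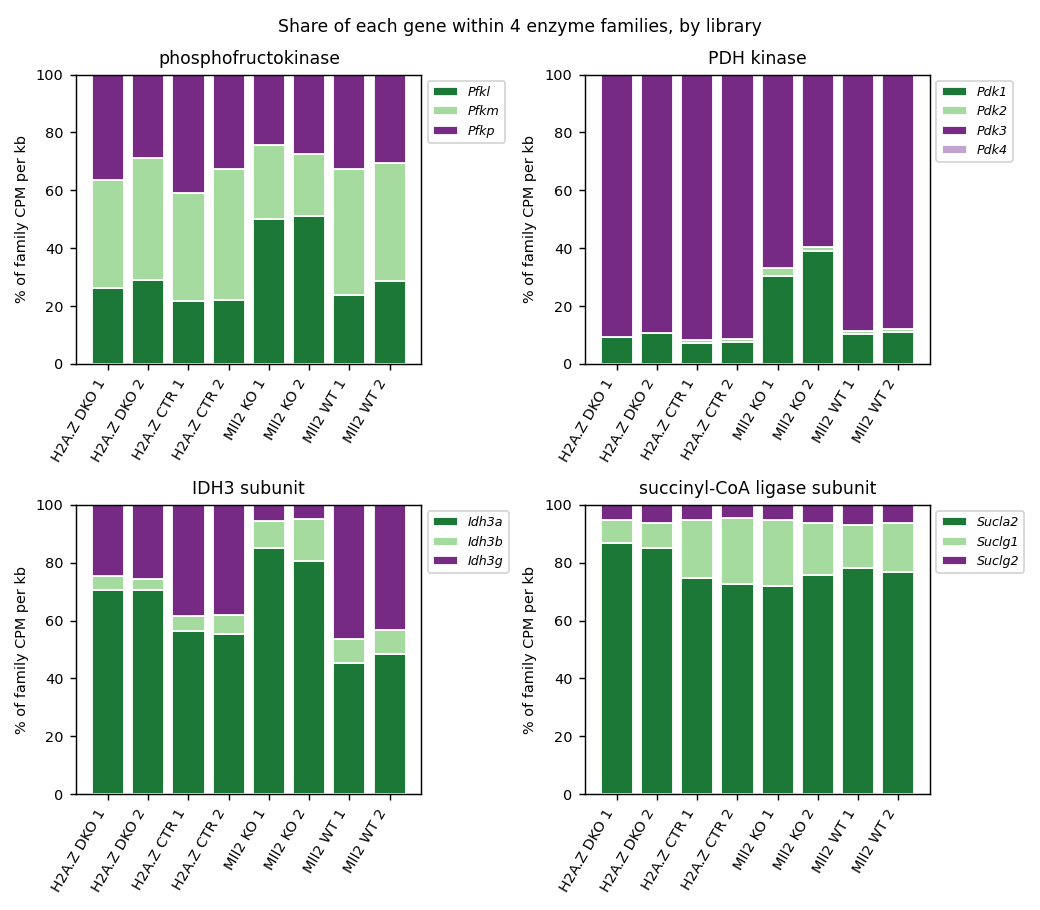
Stacked share (vertical axis, percent of the family's CPM per kb) of each gene within the phosphofructokinase, PDH kinase, IDH3 and succinyl-CoA ligase families, for each library in the order H2A.Z DKO as labelled, H2A.Z CTR, Mll2 KO, Mll2 WT. Idh3g shrinks to 5.48% and 4.94% in Mll2 KO, Pdk1 widens to 30.4% and 38.9% there, and Suclg1 narrows to 7.98% and 8.64% under the DKO label, against 20.1% and 22.7% in CTR.

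The comparisons of the 2 lines contrast different libraries, but all libraries were fitted jointly, with a shared filter, scaling and spread. Their calls are set side by side as a description and are not independent. Pdk1 and Pgd were higher in both, and Dlat, Idh3b and Idh3g lower in both. Of the 5, only Idh3g kept its call in every alternative in both lines. These 5 genes are 45.5% of the members called under the DKO label and 29.4% of those called in Mll2 KO, where over all tested genes the same-direction calls were 33.2% and 33.5% of the calls of each. No member of 49 was called in opposite directions, against 400 of 16847 tested genes, a share so small that 49 members could hold none. In neither comparison were 26 of 49 members called, against 8621 of 16847 genes. Were the H2A.Z labels exchanged, the 5 shared calls would be in opposite directions and none in the same.

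The interaction contrast tested whether a member's change under the DKO label differed from its change in Mll2 KO. Of 49 members, 4 had a higher and 5 a lower change under the DKO label, 18.4%, where 19.5% of all tested genes were called (12.9% higher and 6.68% lower). Idh3g differed by 3.30 ± 0.20 on the log2 scale (adjusted p = 1.23e-07), because its fall was larger in Mll2 KO. Suclg1 differed by -1.74 ± 0.22 (adjusted p = 7.6e-05) and Pdk3 by 1.43 ± 0.20 (adjusted p = 0.000163). Pdk2 was also called (adjusted p = 0.00443), with the size undefined at 0 counts. These 4 differences held in every alternative. Hk2 (1.37 ± 0.45, adjusted p = 0.0442), Pfkm (0.97 ± 0.30, adjusted p = 0.0311), Tpi1 (-0.57 ± 0.15, adjusted p = 0.0141), Pdhb (-0.55 ± 0.18, adjusted p = 0.0414) and Tkt (-0.81 ± 0.27, adjusted p = 0.0485) were called, but each lost the call when 1 of several single libraries was left out (adjusted p up to 0.207 for Hk2, 0.146 for Pfkm, 0.0955 for Tpi1, 0.187 for Pdhb and 0.209 for Tkt). Hk2 also lost it with RLE scaling (adjusted p = 0.0601), library totals alone (0.107) and DESeq2 (0.109), and Pfkm with library totals alone (0.12). Pdhb and Tkt also lost it with replicate number as a block within each line. Leaving out CTR 1, DKO 2 or WT 2 gave 2 higher differences each. Leaving out CTR 2, DKO 1 or WT 1 gave 2 lower, CTR 1 or DKO 2 gave 3, and KO 1 and KO 2 gave 12 and 8. The changes of Idh3b (-0.06 ± 0.25, adjusted p = 0.901), Pdk1 (-0.36 ± 0.30, adjusted p = 0.452) and Pgd (-0.40 ± 0.34, adjusted p = 0.446) were not shown to differ between the lines.

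More members were called between the groups labelled CTR and WT than within either line. Between H2A.Z CTR and Mll2 WT, 10 members were higher and 18 lower in CTR, 57.1%, where 44.3% of all tested genes were called (19% higher and 25.3% lower). Cs had 103 and 106 CPM in CTR, against 236 and 233 CPM in WT (log2 -1.17 ± 0.13, adjusted p = 4.21e-06), and Aco1, the cytosolic aconitase, 23 and 23.3 CPM, against 49.6 and 50.6 CPM (log2 -1.12 ± 0.15, adjusted p = 1.67e-05). Ogdh (log2 -1.15 ± 0.16, adjusted p = 3.55e-05), Slc2a1 (-1.01 ± 0.16, adjusted p = 0.0001), Pfkl (-1.17 ± 0.20, adjusted p = 0.000167) and Pgd (-1.42 ± 0.25, adjusted p = 0.000281) were also lower in CTR. Ldhb (log2 0.84 ± 0.18, adjusted p = 0.00171), Mdh1 (0.81 ± 0.13, adjusted p = 0.000156), Suclg1 (0.72 ± 0.16, adjusted p = 0.00141) and Idh3a (0.62 ± 0.12, adjusted p = 0.000737) were higher. Of the 28 calls, 17 held in every alternative that gave a value, and leaving out CTR 2 or WT 1 gave 5 higher members each. The line, its strain and the preparation of its libraries cannot be told apart here. Levels given across lines carry this difference.

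Some members share reads with other genes. Gapdh had 11.5 and 15.2 CPM under the DKO label, against 11.1 and 15.2 CPM in CTR, and 10.8 and 8.56 CPM in Mll2 KO, against 9.94 and 7.78 CPM in WT, which is uncertain because 177 other loci hold a near-identical transcript stretch. Of these loci 9 are in the table, including Peli2, a gene with reads of its own, and together they had 15856 counts, against 2289 for Gapdh. Eno1b, a near-identical copy of Eno1, had 353 counts, against 6384 for Eno1. How reads were shared among them was not tested. Idh3b overlaps Nop56, Slc16a3 overlaps Csnk1d, Dlst overlaps Prox2, Pdha1 overlaps Map3k15, G6pdx overlaps Ikbkg and Pcx overlaps Lrfn4, so their values carry the same doubt as those of Tpi1 and Pfkm.

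Of 61 further genes of these pathways, 60 were in the table and 46 were tested. Under the DKO label 12 were higher and 4 lower, 34.8%, and in Mll2 KO 5 were higher and 14 lower, 41.3%, beside 30.9% and 30.6% of all tested genes. Slc25a13, the mitochondrial aspartate-glutamate carrier, fell in both lines. It had 11 and 9.39 CPM under the DKO label, against 33.6 and 31 CPM in CTR (log2 -1.66 ± 0.20, adjusted p = 2.16e-05), and 9.3 and 5.64 CPM in Mll2 KO, against 31.4 and 29.4 CPM in WT (log2 -2.03 ± 0.20, adjusted p = 2.18e-06). Pfkfb2, which sets the level of an activator of phosphofructokinase, had 0.842 and 1.09 CPM under the DKO label, against 4.6 and 4.82 CPM in CTR (log2 -2.28 ± 0.33, adjusted p = 0.000125). In Mll2 KO Pfkfb2 had 2 counts, against 326 in WT, 160-fold lower (95% counting interval 43.9 to 1330, adjusted p = 7.88e-08). For both genes the libraries labelled DKO lay far below CTR, and the Mll2 KO libraries far below WT.

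Of the other pathway genes named, 4 stood out under the DKO label and 4 in Mll2 KO. G6pc3, a glucose phosphatase, fell under the DKO label (4.79 and 3.23 CPM, against 11.7 and 13.3 CPM in CTR, adjusted p = 7.12e-05). Tigar, a phosphatase that lowers glycolytic flux, rose there (91.2 and 96.4 CPM, against 57.8 and 61.8 CPM in CTR, adjusted p = 0.00074), as did Gpd2, the mitochondrial glycerol phosphate dehydrogenase (27.1 and 23.8 CPM, against 13.5 and 13.3 CPM, adjusted p = 0.000994), and Fbp2, a fructose bisphosphatase (72 and 70.2 CPM, against 43.6 and 47.7 CPM, adjusted p = 0.00106). In Mll2 KO the fallers with the smallest adjusted p included Tktl2, a transketolase-like gene (3.61 and 4.97 CPM, against 14.7 and 19.6 CPM in WT, adjusted p = 7.88e-06), Sdhc, a membrane anchor of succinate dehydrogenase (77.8 and 58 CPM, against 128 and 145 CPM, adjusted p = 3.58e-05), and Pdhx, which binds dihydrolipoamide dehydrogenase to the PDH core (218 and 173 CPM, against 347 and 362 CPM, adjusted p = 4.14e-05). Tktl1 had 0 counts in KO, against 86 in WT, at least 28.1-fold lower with 3 counts as the floor for the group (adjusted p = 2.34e-05). No groups overlapped for any of these genes in the line named, and their calls held in every alternative. Tigar and Gpd2 were also called in Mll2 KO, at adjusted p = 0.0247 and 0.0322 with log2 changes of 0.37 ± 0.12 and -0.52 ± 0.17, calls lost in 4 and 5 of 16 alternatives, among them the omission of WT 2.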

How the data were processed

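Each of the 8 libraries came from a pool of about 20 full-grown oocytes, amplified with SMART-Seq v4 and prepared with Nextera XT, per the labels' protocols. The authors deposited raw counts per gene symbol as whole numbers for all libraries in 1 table. The submitters' processing notes name build mm10 and the tools RSEM 1.3.1, STAR 2.7.3 and Trim Galore 0.6.4, without their roles. The annotation, any rounding and the handling of reads shared by gene copies are not stated there.

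Counts were fitted in R 4.3.3 with edgeR 4.0.16 (limma 3.58.1): filterByExpr by group, TMM scaling, 4 group means, and a robust quasi-likelihood test over 16847 genes with Benjamini-Hochberg adjustment at 0.05. The fit had 4 residual degrees of freedom and a common dispersion of 0.0152. The SE was derived from the F statistic. The script was tested on simulated counts before use. Contrasts were DKO as labelled minus CTR, KO minus WT, the difference of these, and CTR minus WT. Alternatives were other scaling, other filters, DESeq2 1.42.0, a fit without robust estimation, a replicate block, each line fitted alone, and leaving out each library. No replicate pair agreed within sampling noise (chi-square per degree of freedom of 4.67 or more).

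Normalised CPM used TMM-scaled totals, and CPM per kb divides that by the longest GENCODE M21 transcript with a consensus coding sequence. Positions and promoters came from RefSeq GRCm38.p6, which matched 53 and 50 members; of several starts, the window with the most CpG was used. Copies were found with BLAST 2.17.0 at 90% identity over 200 bases. Counting intervals cover counting error only. The members and gene lists were chosen with earlier results of these data known. Members called in a comparison, or at 10 CPM or more, could be given in full; of the other pathway genes, up to 6 for each line with the smallest adjusted p were named. Divergent neighbours and markers named lie outside this rule and were chosen after their values were seen.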

Additional observations from a re-analysis of the deposited data

Results flagged for a closer look

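The changes under the DKO label and in Mll2 KO differed for 9 members by the interaction contrast of edgeR, given as the log2 change under the DKO label minus that in Mll2 KO. The difference was 3.30 for Idh3g, 1.43 for Pdk3, 1.37 for Hk2 and 0.97 for Pfkm. It was -1.74 for Suclg1, -0.81 for Tkt, -0.57 for Tpi1 and -0.55 for Pdhb. Pdk2 had a fitted difference of -7.04, which rests on 0 counts in both libraries labelled DKO and is no measure of size.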

How the results depend on the processing

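Among called members, 4 of 11 calls under the DKO label, 7 of 17 in Mll2 KO, 4 of 9 in the difference of effects and 17 of 28 between controls held in every alternative that gave a value, and no called member changed sign. Counts of calls moved by over 1.5 times as follows. With library totals alone, 3 members and not 5 were higher under the DKO label, 5 and not 10 were lower in Mll2 KO, and 2 and not 4 had a higher difference. With each line fitted alone, 13 and not 6 were lower under the DKO label and 6 and not 10 were lower in Mll2 KO; no such fit exists for contrasts across lines. With the replicate block, 3 and not 5 had a lower difference and 5 and not 10 were higher in CTR than in WT; the block changed no other count by that much. It ended the calls of Pdhb (adjusted p = 0.0541) and Tkt (0.0577) in the difference and of Dld (0.0513), Slc16a3 (0.0551) and Pgam1 (0.0605) in Mll2 KO. Same-numbered replicates deviated with correlations of 0.0395 in the H2A.Z line and -0.0221 in the Mll2 line, so the numbers were not taken as pairs. Leaving out each library in turn gave 1 to 5 higher and 4 to 13 lower members under the DKO label, 4 to 13 higher and 4 to 13 lower in Mll2 KO, 2 to 5 higher and 2 to 12 lower differences, and 5 to 15 higher and 15 to 20 lower members between controls. The 13 and 12 lower members under the DKO label came without Mll2 KO 1 and KO 2, which enter that comparison through the shared filter, scaling and spread. Cs, not called in the difference (0.02), was -0.33 with adjusted p = 0.0356 without Mll2 KO 1 and 0.20 without KO 2. The cause of these shifts was not tested. The 2 libraries a group limit precision, and members under about 1 CPM rest on few counts.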

Other observations

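Members on the X chromosome were Pgk1, Pdha1, Pdk3, Idh3g and G6pdx, a grouping made after their values were seen. In Mll2 KO 3 of the 5 were lower (Pdk3, Idh3g and G6pdx) and none higher, against 7 lower and 7 higher of the 44 tested members on other chromosomes. Over all tested genes with a RefSeq position, 28.7% of 506 X-linked genes were lower in Mll2 KO, against 16% of 15224 genes on other chromosomes, and the median log2 changes were -0.16 and 0.02. Under the DKO label 15.2% of X-linked genes were lower, against 11.4% of the others, and 1 of the 5 X-linked members was.

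The 52 members other than Ldhb summed to 2930 and 2984 CPM in the libraries labelled DKO, against 3168 and 3108 CPM in CTR, and to 3069 and 2990 CPM in Mll2 KO, against 3177 and 3350 CPM in WT. The 15 TCA and isocitrate genes summed to 1391 and 1422 CPM under the DKO label, against 1578 and 1537 CPM in CTR, and to 1301 and 1256 CPM in Mll2 KO, against 1408 and 1491 CPM in WT. These sums are a description with no test, and the order of the Mll2 groups depends on scaling. With library totals alone, a setting added after seeing the data, the 52 genes summed to 3386 and 3382 CPM in Mll2 KO, against 3315 and 3378 CPM in WT, so both KO libraries lay above WT. The same setting gave 2649 and 2646 CPM under the DKO label, against 3019 and 3099 CPM in CTR. The TCA sums then were 1257 and 1261 CPM under the DKO label, against 1504 and 1532 CPM in CTR, and 1435 and 1421 CPM in Mll2 KO, against 1470 and 1504 CPM in WT.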
